A study of Mus musculus with 29 samples.

Results

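Mug1, Mug2, A2m and Pzp encode the murinoglobulins, alpha-2-macroglobulin and pregnancy zone protein of the mouse, the alpha-macroglobulin family of secreted protease inhibitors. They were taken as the probes of the array whose name, or whose current symbol by accession, was 1 of these 4 symbols, which gave 6 of 41174 probes and 4 of 27656 gene names. The family was selected on the levels of Mug1 on gestation day (GD) 1.5, whose difference between exposures and whose course to GD3.5 were already known, so these are described here without a test. RNA of whole uteri from female CD-1 mice was measured on 29 single-colour Agilent arrays. GEN mice had been given genistein, a soy isoflavone that binds estrogen receptors, on postnatal days 1 to 5, each day at a dose of 50 mg/kg, and CON mice corn oil on the same days. As adults they were mated and the uterus was taken on GD1.5 (4 GEN and 3 CON arrays), GD3.5 (3 and 3), GD4.5 (4 and 4) or GD5.5 (4 and 4). The labels do not say that arrays of a group are separate animals, so p-values measure only the spread between these samples.

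An alpha-macroglobulin is a large secreted protein with a bait region that many proteases cut. The cut exposes an internal thioester and closes the inhibitor around the protease, and the complex is then taken up by cells through the receptor LRP1. The same proteins also carry growth factors and cytokines. In the mouse the liver supplies most of the circulating murinoglobulins and Pzp, and in the rat alpha-2-macroglobulin is also a known product of the decidua, the uterine stroma that differentiates around an implanting embryo.

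Levels are log2 intensities relative to the 75th percentile of the same array, so a level of 0 is that percentile, and levels of different probes are not set against each other. Arrays of GD1.5 and GD3.5 lay on slides 1 to 4 and those of GD4.5 and GD5.5 on slides 5 to 8, so nothing is compared between GD3.5 and GD4.5. The 75th percentile stood at 1490 to 1840 intensity units on slides 1 to 4 and at 734 to 995 on slides 5 to 8, and arrays of 1 group correlated at r = 0.968 to 0.995. Each of the 8 smooth muscle markers and 11 simple epithelium markers was well above background on at least 1 array of every group, as the label uterus calls for.

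The probes that report the murinoglobulins and alpha-2-macroglobulin are shown because the reading of Mug1 against Mug2 rests on them. Each is a 60-base oligonucleotide for chromosome 6. Positions are on the plus strand of NCBI35 (mm7), the mouse build named in the array design.
Mug1, chr6:121915030-121915089: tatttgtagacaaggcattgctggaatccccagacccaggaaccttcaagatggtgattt
Mug2 probe 1, chr6:122111569-122111942: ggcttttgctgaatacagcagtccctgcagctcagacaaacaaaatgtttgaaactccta
Mug2 probe 2, chr6:122105699-122105758: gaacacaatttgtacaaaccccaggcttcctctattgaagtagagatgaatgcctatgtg
A2m probe 1, chr6:121701093-121701152: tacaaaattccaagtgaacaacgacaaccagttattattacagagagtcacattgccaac
A2m probe 2, chr6:121664638-121666380: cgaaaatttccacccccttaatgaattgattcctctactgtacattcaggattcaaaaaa
The longest run of bases that the Mug1 probe shares with either Mug2 probe is 7. The array design nevertheless assigns Mug2 probe 1 to the Mug1 transcript as well, and Mug2 probe 2 to a transcript of Gm7298, another alpha-macroglobulin locus of the region. Signal of these close relatives on the Mug2 probes can therefore not be told apart from that of Mug2. Pzp has 1 probe, on the minus strand at chr6:128509421-128510186.

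Mug1 and Mug2 also resemble each other in front of the gene. The windows from 250 bases before to 50 bases after their starts (RefSeq, GRCm38.p6, plus strand) are shown because the probes of both genes moved together on the arrays. Whether the windows have a part in this was not tested. Capitals mark bases without a match in the other window, within the stretch over which both could be aligned.
Mug1, chr6:121838291-121838590: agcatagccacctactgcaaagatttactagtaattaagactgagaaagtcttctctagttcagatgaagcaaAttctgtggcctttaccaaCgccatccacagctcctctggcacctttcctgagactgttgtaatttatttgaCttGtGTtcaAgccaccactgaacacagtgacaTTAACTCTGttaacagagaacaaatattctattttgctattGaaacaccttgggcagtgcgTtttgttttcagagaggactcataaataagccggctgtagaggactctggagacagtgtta
Mug2, chr6:122006548-122006847: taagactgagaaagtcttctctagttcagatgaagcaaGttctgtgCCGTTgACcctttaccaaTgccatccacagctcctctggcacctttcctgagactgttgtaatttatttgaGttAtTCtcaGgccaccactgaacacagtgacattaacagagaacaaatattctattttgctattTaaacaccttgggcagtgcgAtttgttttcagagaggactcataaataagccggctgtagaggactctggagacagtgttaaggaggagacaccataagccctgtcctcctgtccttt
The alignment has 272 columns, of which 247 (90.8%) are identical and 9 are substitutions. Both strands of each window, and of the Pzp window, were searched for a STAT motif (TTCNNNGAA, in 8.30% of 32851 promoter windows), a FOXA motif (TGTTTAC, 3.65%), a TATA box (TATAAA, 13.6%) and the full palindromes of the estrogen response element (0.0700%) and the progesterone response element (0.00913%). None of them was in any of the 3 windows.

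Mug1, which encodes murinoglobulin 1, was low on every GEN array of GD1.5 and varied widely among CON arrays of that day. Its level was -5.56, -5.84, -5.84 and -6.09 in GEN uteri, against -5.07, -0.22 and 1.53 in CON uteri. In intensity units this is 24.8 to 38.6 in GEN and 50.4 to 4914 in CON, and the probe was well above background on all 29 arrays. The groups did not overlap, but CON 1 lay only 0.49 above the highest GEN array while CON 2 and CON 3 lay far above it. The means were -5.83 ± 0.22 in GEN (SD, n = 4) and -1.25 ± 3.42 in CON (SD, n = 3), a difference of -4.58. Within the 2 slides that held both exposures of that day the difference was -6.49 and -0.77. Marker lists differed on GD1.5 as well: 8 of 9 endometrial gland genes were lower in GEN (median -1.84, against -0.01 over all genes), and all 8 adipocyte markers (median 2.41) and all 8 detected neutrophil markers (median 2.49) were higher. The summed level of the adipocyte list was 2.73 to 43.9 in GEN and 2.48 to 8.54 in CON, in multiples of the 75th percentile, and that of the neutrophil list 128 to 268 in GEN and 118 to 175 in CON. Their part in the result was not tested. In whole tissue, fewer cells of a type and less RNA per cell cannot be told apart, here and in all results that follow.

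**Figure D1:**
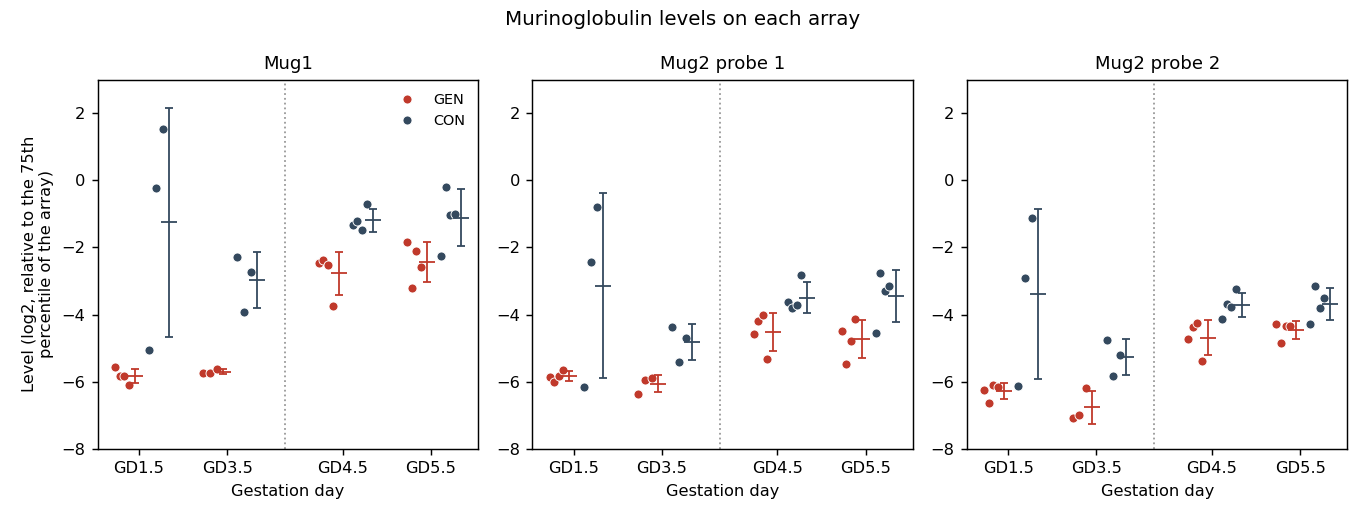
Levels of Mug1 and of both Mug2 probes on each of the 29 arrays (log2, relative to the 75th percentile of the array) by gestation day, GEN in red and CON in dark blue. Bars are mean and SD, and the dotted line separates slides 1 to 4 from slides 5 to 8. On GD3.5 the 3 GEN arrays of Mug1 lie between -5.74 and -5.62, below all 3 CON arrays.

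Mug2, which encodes murinoglobulin 2, had the same CON arrays high on GD1.5. Probe 1 read -5.85, -6.01, -5.82 and -5.64 in GEN uteri, against -6.17, -2.43 and -0.80 in CON uteri. Probe 2 read -6.24, -6.64, -6.09 and -6.17 in GEN uteri, against -6.12, -2.90 and -1.13 in CON uteri. CON 1 was below all GEN arrays on probe 1 and within their range on probe 2, and CON 2 and CON 3 were high on both, as with Mug1. The difference between the means was -2.70 on probe 1 and -2.90 on probe 2.

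A2m, which encodes alpha-2-macroglobulin, had CON 3 high on GD1.5 but not CON 2. Probe 1 read -1.89, -2.12, -2.29 and -2.64 in GEN uteri, against -2.14, -2.57 and -0.87 in CON uteri, and the groups overlapped. Its dimmer probe 2 read -5.89, -5.73, -6.29 and -6.37 in GEN uteri, against -6.51, -6.50 and -5.36 in CON uteri, again with overlap. CON 3 was the highest array of that day on both probes, as with Mug1 and Mug2. Pzp could not be measured: its probe was well above background on 0 of 29 arrays, so no fold is given and it entered no test. Of the 4 members, 3 therefore had a fitted level.

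On GD3.5, the day before implantation begins in the mouse, Mug1 was low in GEN uteri again and the CON arrays lay between the extremes of GD1.5. Its level was -5.74, -5.74 and -5.62 in GEN uteri, against -2.27, -3.91 and -2.73 in CON uteri. Every GEN array lay below every CON array, with a gap of 1.71 between them. The difference was -2.73 (SE 0.93, 95% interval -4.65 to -0.80), which is 6.63-fold lower in GEN. It did not pass limma's test over 20402 genes (adjusted p = 0.484). Within the 2 slides that held both exposures it was -3.47 and -1.71. Of 29 fits that each left out 1 array, 28 gave the same outcome. The fit without GD1.5 CON 1, whose low Mug1 value widens the spread that all groups share, passed (adjusted p = 0.0229 by limma). That array is among those on which the family was selected, so this pass is not independent of the selection. With only the arrays of GD3.5 in the fit the adjusted p was 0.0938.

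Mug2 and A2m lay lower in GEN than in CON on every array of GD3.5 too. Mug2 probe 1 read -6.36, -5.94 and -5.88 in GEN uteri, against -4.37, -5.42 and -4.70 in CON uteri, a difference of -1.23 (SE 0.77, adjusted p = 1.0 by limma). A2m probe 1 read -2.83, -3.16 and -3.25 in GEN uteri, against -2.29, -2.38 and -2.41 in CON uteri, a difference of -0.72 (SE 0.48, adjusted p = 1.0 by limma). Probe 2 of Mug2 read -7.08, -7.00 and -6.20 in GEN uteri, against -4.76, -5.84 and -5.19 in CON uteri (difference -1.50, adjusted p = 0.878 by limma), again without overlap. So the groups did not overlap in 3 of the 3 fitted members, where 20.3% of all genes tested had groups that did not overlap on this day. Mug1 and Mug2 do not count separately here. Mug2 probe 1 is also assigned to the Mug1 transcript, and the probes of both genes followed each other across arrays. None of the 3 was called at an adjusted p under 0.05, against 0.127% of all genes tested (26 of 20402, and 1161 at an unadjusted p under 0.05). As a description, the mean of Mug1 on GD3.5 differed from that on GD1.5 by 0.13 in GEN and by -1.72 in CON. On the 1 slide that held both CON days, with CON 1 of each, GD3.5 was instead higher by 2.80.

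On GD4.5, when implantation is under way, both murinoglobulins lay lower in GEN uteri too. Mug1 read -2.45, -2.38, -2.53 and -3.74 in GEN uteri, against -1.33, -1.21, -1.49 and -0.70 in CON uteri. All 4 GEN arrays lay below all 4 CON arrays, and GEN 4 was the lowest. The difference was -1.59 (SE 0.81, 95% interval -3.26 to 0.08), or 3.02-fold lower in GEN, and did not pass limma's test (adjusted p = 0.546). Within the 3 slides that held both exposures it ran from -1.83 to -0.89. The SE and interval rest on the spread that all groups share, including the CON arrays of GD1.5 (SD 3.42). On GD4.5 itself the SD of Mug1 was 0.65 in GEN and 0.34 in CON (n = 4 each). The SEs of the murinoglobulins on GD5.5 and between days rest on the same shared spread.

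Mug2 probe 1 read -4.57, -4.20, -4.01 and -5.31 in GEN uteri, against -3.63, -3.80, -3.72 and -2.82 in CON uteri on GD4.5. These groups did not overlap either, and the difference was -1.03 (SE 0.67, adjusted p = 0.682 by limma). Probe 2 of Mug2 read -4.72, -4.38, -4.25 and -5.39 in GEN uteri, against -4.13, -3.69, -3.78 and -3.24 in CON uteri (difference -0.98, adjusted p = 0.65 by limma), with the lowest CON array just above the highest GEN array. A2m lay the other way. It read -0.75, -0.48, -1.95 and -0.65 in GEN uteri, against -1.24, -1.62, -2.62 and -1.61 in CON uteri, which overlap through GEN 3, and the difference was 0.81 (SE 0.41, adjusted p = 0.548 by limma). Its dimmer probe 2 gave 0.05. The groups did not overlap in 2 of the 3 fitted members, Mug1 and Mug2, which do not count separately, against 4.15% of all genes tested. None was called, against 0.12% of all genes tested (26 of 21622, and 2089 at an unadjusted p under 0.05).

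On GD5.5, with decidua forming, the exposures overlapped in every fitted member. Mug1 read -1.85, -3.21, -2.09 and -2.57 in GEN uteri, against -2.24, -0.20, -1.02 and -0.99 in CON uteri, and CON 1 lay among the GEN arrays. The difference was -1.32 (SE 0.81, adjusted p = 0.994 by limma), and it was negative in 2 of the 3 slides that held both exposures. Mug2 probe 1 read -4.50, -5.47, -4.80 and -4.14 in GEN uteri, against -4.56, -2.77, -3.31 and -3.15 in CON uteri, a difference of -1.28 (SE 0.67, adjusted p = 0.947 by limma), and its probe 2 gave -0.76. CON 1 was again the lowest CON array. A2m read 1.14, 1.18, -0.39 and 1.49 in GEN uteri, against 1.05, 0.78, 1.87 and 0.40 in CON uteri, a difference of -0.17 (SE 0.41, adjusted p = 1.0 by limma). The share of all 20832 genes tested whose groups did not overlap was 1.72% on this day, and limma called 0%, with 1147 genes at an unadjusted p under 0.05.

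**Figure D2:**
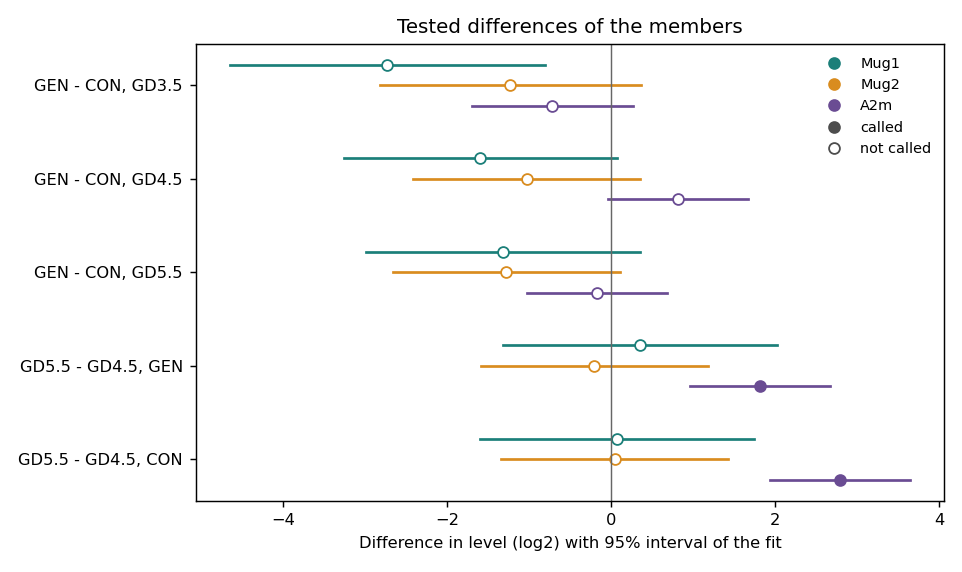
Differences of Mug1, Mug2 and A2m in the tested comparisons (log2, x axis), with the 95% interval of the limma fit. Filled points passed an adjusted p under 0.05 over all genes tested, which A2m did from GD4.5 to GD5.5 in GEN (1.82) and in CON (2.80).

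A2m was the member that passed the test between days. From GD4.5 to GD5.5 it rose in both exposures: the GD5.5 arrays given above lay above all GD4.5 arrays of the same exposure, with a gap of 0.09 in GEN and 1.63 in CON. The rise was 1.82 in GEN (SE 0.41, 95% interval 0.96 to 2.67, 3.52-fold, adjusted p = 0.00439 by limma) and 2.80 in CON (SE 0.41, 95% interval 1.94 to 3.65, 6.94-fold, adjusted p = 3.6e-05). Within slides it was 1.66 to 3.45 in GEN (2 slides) and 2.00 to 3.40 in CON (4 slides). The rise in GEN lost its call when only the arrays of those GEN groups were fitted (adjusted p = 0.134), a setting in which limma called 0 genes.

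Probe 2 of A2m, at another place in the transcript, gave a smaller rise. It read -3.88, -3.88, -4.14 and -3.19 in GEN uteri of GD5.5, against -5.05, -4.42, -5.11 and -5.08 in GEN uteri of GD4.5, a rise of 1.15 (SE 0.25, adjusted p = 0.00326 by limma). In CON it read -3.64, -3.86, -3.23 and -3.93 on GD5.5, against -5.01, -5.07, -5.18 and -4.62 on GD4.5, a rise of 1.30 (SE 0.25, adjusted p = 0.000487). On either probe no array of GD5.5 overlapped with GD4.5. The rise was not shown to differ between exposures: the difference of the GEN minus CON effect, GD5.5 minus GD4.5, was -0.98 on probe 1 (SE 0.58, adjusted p = 0.736 by limma), and limma called 0.00443% of all genes tested for it (1 of 22555).

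**Figure D3:**
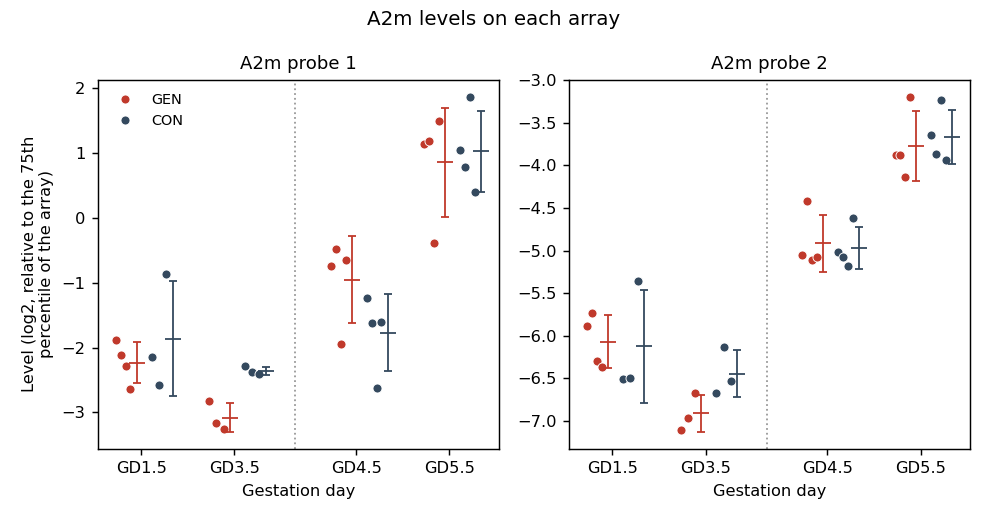
Levels of both A2m probes on each of the 29 arrays (log2, relative to the 75th percentile of the array) by gestation day, GEN in red and CON in dark blue, with mean and SD. The vertical scales of the panels differ. All GD5.5 arrays lie above the GD4.5 arrays of the same exposure, and GEN and CON overlap on both days.

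The murinoglobulins did not pass the test between those days. Mug1 differed by 0.35 in GEN (SE 0.81, adjusted p = 0.787 by limma) and 0.07 in CON (SE 0.81, adjusted p = 0.965), with 95% intervals of -1.32 to 2.02 and -1.60 to 1.74. Mug2 differed by -0.21 in GEN and 0.04 in CON. Thus 1 of 3 fitted members was called in each exposure, where 22.4% of all genes tested were called in GEN (4690 of 20944) and 30.9% in CON (6706 of 21680), so the count itself is near the background. Ranked within slides 1 to 4, the means of Mug1 ran from CON GD1.5 through CON GD3.5 and GEN GD3.5 to GEN GD1.5, and the neighbours within an exposure overlapped. Within slides 5 to 8 they ran from CON GD5.5 (-1.11 ± 0.84, SD, n = 4) and CON GD4.5 (-1.18 ± 0.34) to GEN GD5.5 (-2.43 ± 0.60) and GEN GD4.5 (-2.78 ± 0.65), and the days within an exposure overlapped.

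The probes of Mug1 and Mug2 followed each other closely across arrays, and those of A2m followed them less closely. Over the 29 arrays, which share day, exposure and slide, Mug1 correlated with Mug2 at r = 0.95 (probe 1) and 0.97 (probe 2), and at 0.92 and 0.96 over the 16 arrays of GD4.5 and GD5.5 alone. With A2m probe 1 it correlated at r = 0.48 over all arrays, at 0.57 over the 13 arrays of GD1.5 and GD3.5 and at -0.06 over those 16. With A2m probe 2 it correlated at 0.56, 0.37 and 0.13 over the same sets of arrays. Over the 13 early arrays A2m probe 1 correlated at 0.60 with Mug2 probe 1 and at 0.65 with Mug2 probe 2. Spearman's rho over all arrays was 0.93 and 0.96 with the Mug2 probes and 0.48 with A2m probe 1. The A2m probes correlated with each other at r = 0.93. These values are descriptions over arrays that are not independent of day and exposure.

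**Figure D4:**
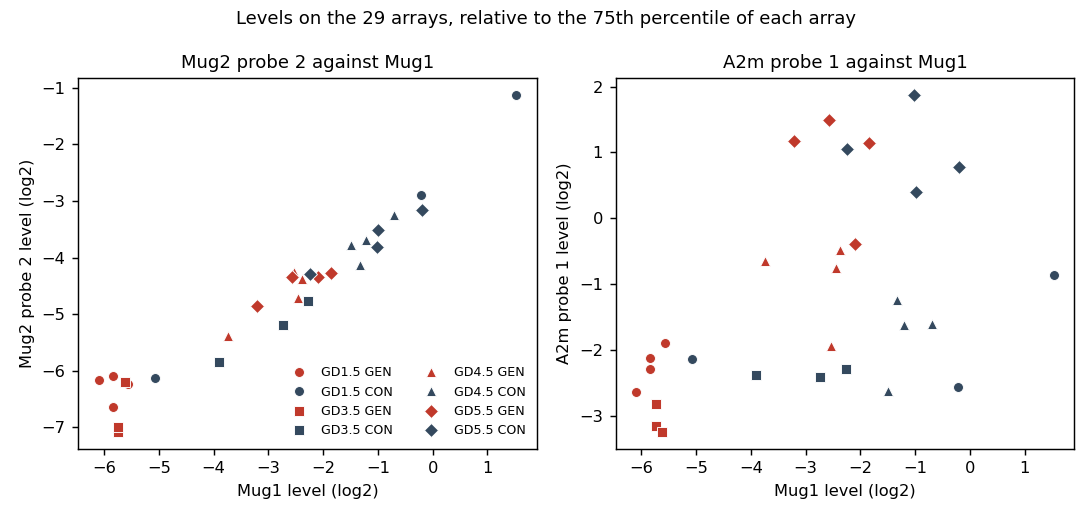
Mug2 probe 2 (left) and A2m probe 1 (right) against Mug1 on the 29 arrays (log2 levels, relative to the 75th percentile of the array). Colour gives exposure and shape gives the day. Mug1 and Mug2 lie along 1 line across days and exposures (r = 0.97), with GD1.5 CON 1 next to the GEN arrays of that day, and A2m scatters more widely against Mug1 (r = 0.48).

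The 8 genes most like Mug1 over the 29 arrays were Krt23, an epithelial keratin (r = 0.93), the hair-type keratins Krt86 (0.92) and Krt87 (0.92), the implantation serine proteinase Prss29 (0.88), the trypsin gene Prss3 (0.87), the implantation serine proteinase Prss28 (0.85), Hapln2, a link protein of hyaluronan matrices (0.83), and Vsig1, a membrane protein of the immunoglobulin superfamily (0.83). Within GD1.5 and GD3.5 (13 arrays) these r ran from 0.81 to 0.96, and within GD4.5 and GD5.5 (16 arrays) from 0.53 to 0.84. Spearman's rho over the 29 arrays was 0.82 to 0.92, and r without the 2 arrays farthest from the median of Mug1 was 0.81 to 0.95. Hapln2 was well above background on only 10 of the 29 arrays, Vsig1 on 23 and Prss28 on 26, so their r rests in part on values at background. The genes most like Mug2 were Krt23 (0.86), Pip, which encodes prolactin-inducible protein (0.84), Prss3 (0.82), Krt86 (0.81) and Krt87 (0.80), with rho of 0.82 to 0.86. Pip was well above background on 26 of the 29 arrays.

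Krt86 shows the likeness in levels. On GD3.5 it averaged -4.36 ± 0.22 in GEN and -1.14 ± 1.81 in CON (SD, n = 3 each), a difference of -3.22 (adjusted p = 0.133 by limma). On GD4.5 it averaged -1.71 ± 0.45 in GEN and 1.25 ± 0.41 in CON (SD, n = 4 each), a difference of -2.96 (adjusted p = 0.0766). Prss29 averaged -5.65 ± 0.34 in GEN and 0.80 ± 1.09 in CON on GD3.5 (adjusted p = 0.203 by limma). Krt86 and Prss29 were picked by their r with Mug1 over these same arrays. Their lower levels in GEN are therefore not independent of that choice.

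Other genes were like A2m. Those with the highest r were Prl6a1 and Prl8a2, prolactin-family hormones made by decidua (0.94 each), Slc6a12, a betaine and GABA transporter (0.94), Me1, which encodes malic enzyme (0.94), and Them7, a thioesterase superfamily member (0.93). Within GD4.5 and GD5.5 they ran from 0.91 to 0.94, and within GD1.5 and GD3.5 from 0.25 (Slc6a12) to 0.66 (Prl6a1). Prl8a2 was well above background on 12 of the 29 arrays and Prl6a1 on 21, so their r rests in part on values at background. Their rho over the 29 arrays was 0.86 to 0.91.

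Genes of the uterine glands lay lower in GEN beside the murinoglobulins. The list includes Prss28 and Prss29, named above. Of 9 endometrial gland genes on the array, 8 were lower in GEN on GD3.5 (median -2.39, against -0.03 over all genes tested) and 9 on GD4.5 (median -1.76, against -0.04). On GD5.5, 8 of 9 were lower in GEN (median -0.55, against -0.01), with none called. Passing limma's test were Spdef, a transcription factor of secretory epithelium, on GD3.5 (-2.48, SE 0.44, adjusted p = 0.022), and Ttr, the carrier transthyretin, on GD3.5 (adjusted p = 0.0055) and GD4.5 (adjusted p = 0.0353). Ttr was not well above background on any GEN array of either day. The summed level of the list, in multiples of the 75th percentile, was 33.9 to 43.2 in GEN and 27.6 to 38.4 in CON on GD3.5, and 11.9 to 22.6 in GEN and 29.8 to 129 in CON on GD4.5. The gene that was higher in GEN on GD3.5 was Calb1, at a log2 level of 5.1 ± 0.2 in GEN and 4.4 ± 0.6 in CON (SD, n = 3 each). The part of gland content in the Mug1 and Mug2 results was not tested.

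Of the markers of stratified epithelium, 3 of 9 detected genes were lower in GEN on GD3.5 (median 0.21, against -0.03 over all genes tested) and 8 of 12 on GD4.5 (median -0.41, against -0.04), with none called on either day. Their summed level was lower in GEN than in CON without overlap on GD3.5 (4.97 to 5.79 against 8.16 to 9.58) and on GD4.5 (4.02 to 6.99 against 9.26 to 13.9). That list holds Krt23 and Krt86, both among the genes most like Mug1, so its sum is not independent of that likeness. The part of the list in the murinoglobulin results was not tested. The defining basal keratins lay low in both exposures: Krt14 averaged -3.58 ± 0.44 in GEN and -3.72 ± 0.47 in CON on GD3.5, and Krt5 -4.49 ± 0.25 in GEN and -4.78 ± 0.15 in CON (SD, n = 3 each).

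Of the liver plasma protein genes, 7 of 11 tested were lower in GEN on GD3.5 (median -0.34, against -0.03 over all genes tested) and 11 of 16 on GD4.5 (median -0.42, against -0.04), with Ttr the gene called on each day. Hpx, which encodes hemopexin and was picked after its values were seen, averaged -3.79 ± 0.58 in GEN and -1.95 ± 0.69 in CON on GD4.5 (SD, n = 4 each), without overlap (adjusted p = 0.0665 by limma). Alb, which encodes albumin, averaged -6.91 ± 0.31 in GEN and -6.19 ± 0.47 in CON on GD3.5 (SD, n = 3 each), and Fga, of fibrinogen, was well above background on no array of that day. On GD4.5 Fga was well above background on 2 of 4 GEN arrays and 3 of 4 CON arrays, and Alb averaged -4.74 ± 0.45 in GEN and -4.79 ± 0.62 in CON (SD, n = 4 each). The summed level of the 16 liver genes on the array was 3.04 to 4.08 in GEN and 2.23 to 2.35 in CON on GD3.5, most of it from Trf, the transferrin gene, at 1.56 ± 0.28 in GEN and 0.82 ± 0.06 in CON. The part of these genes in the Mug1 and Mug2 results was not tested.

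Of the simple epithelium markers, 5 of 11 were lower in GEN on GD3.5 (median 0.01) and 10 of 11 on GD4.5 (median -0.50, against -0.04 over all genes tested), with none called on either day. Their summed level was 138 to 148 in GEN and 120 to 147 in CON on GD3.5, and 59.1 to 259 in GEN and 127 to 230 in CON on GD4.5. Their part in the murinoglobulin results was not tested.

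Decidual markers moved with A2m. On GD5.5, 11 of 12 were higher than on GD4.5 in GEN and all 12 in CON, with medians of 1.93 in GEN and 2.55 in CON, against 0.09 and 0.02 over all genes tested. Of these, 9 passed limma's test in GEN and 11 in CON. Their summed level was 96.4 to 198 on GD5.5 and 47.0 to 93.1 on GD4.5 in GEN, and 102 to 183 on GD5.5 and 40.9 to 66.1 on GD4.5 in CON. Bmp2, a signal of decidualization, rose by 3.18 in GEN and 4.30 in CON, and Wnt4, a further such signal, by 2.93 in GEN and 3.95 in CON. Between exposures, 9 of 11 decidual markers were higher in GEN on GD4.5 (median 0.19, against -0.04 over all genes tested). On GD5.5, 11 of 12 were lower in GEN (median -0.45, against -0.01). The difference of the GEN minus CON effect, GD5.5 minus GD4.5, was negative in all 12 (median -0.94, against 0.04). No decidual marker was called in these comparisons between exposures. The part of decidual cell content in the A2m results was not tested.

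Of the relatives of the members (complement thioester proteins, Cd109 and other alpha-macroglobulin loci), 5 genes were tested on each day, with C4a among them on GD3.5 and A2ml1 in its place on GD4.5 and GD5.5, and none was called between exposures on GD3.5, GD4.5 or GD5.5. C3, the central complement component, differed by 0.16, 0.37 and 0.63 on these days, and C4b by -0.54, -0.44 and 0.49. Between GD4.5 and GD5.5, C4b (-1.74, adjusted p = 0.00372) and C3 (-1.10, adjusted p = 0.0397) fell in CON, opposite to A2m, and neither passed the test in GEN (-0.81 and -0.84).

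Genes that receive and clear alpha-macroglobulins did not differ between exposures beyond the test. None of 8 was called on GD3.5, GD4.5 or GD5.5. Lrp1, named for its role as the main receptor after its values were seen, differed by 0.21, 0.34 and -0.29 on these days. From GD4.5 to GD5.5 the receptor gene Lrp8 rose in GEN (1.54, adjusted p = 0.00834) and in CON (1.46, adjusted p = 0.00645). In CON 3 rose and 2 fell in all. Those that fell were Lrp2 (-2.57, adjusted p = 0.011) and Vldlr (-0.84, adjusted p = 0.00712).

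Of 24 genes of proteases that alpha-macroglobulins trap, 20 or 21 were detected and none was called between exposures on GD3.5, GD4.5 or GD5.5. Lower in GEN were 16 of 20 on GD3.5 (median -0.21) and 13 of 21 on GD4.5 (median -0.08). On GD5.5, 15 of 21 were higher in GEN (median 0.17). From GD4.5 to GD5.5, 1 of 20 rose and 2 fell in GEN, and 3 of 21 rose and 6 fell in CON. For this and the other pathway lists, the shares called between these days stand beside 22.4% of all genes in GEN and 30.9% in CON. Ctsg, which encodes cathepsin G, rose by 2.94 in GEN (adjusted p = 0.0011) and 2.00 in CON (adjusted p = 0.00814). Mmp3, which encodes stromelysin, changed by -1.19 in GEN (adjusted p = 0.0207) and by -2.07 in CON (adjusted p = 0.000177).

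The IL-6 family and STAT3 genes, which drive A2m as an acute phase gene in rat liver, were not called between exposures either (0 of 13 on GD3.5, GD4.5 and GD5.5). On GD3.5, 11 of 13 were lower in GEN (median -0.17, against -0.03 over all genes tested). Their summed level was 114 to 123 in GEN and 129 to 170 in CON, without overlap. On GD4.5, 10 were lower in GEN (median -0.11, against -0.04), and on GD5.5, 9 were higher (median 0.06, against -0.01). Their part in the members' results was not tested. From GD4.5 to GD5.5, 3 rose and 3 fell in GEN, and 3 rose and 5 fell in CON. Jak1 rose by 0.53 in GEN (adjusted p = 0.0145) and 0.87 in CON (adjusted p = 0.000146), and Il6st, the shared receptor chain, changed by -1.03 in GEN (adjusted p = 0.000221) and by -1.28 in CON (adjusted p = 5.61e-06). Of the acute phase genes, 10 of 11 were lower in GEN on GD3.5, when the 3 fitted members were lower too (median -0.84, against -0.03 over all genes tested), with none called. Their summed level on that day was 3.18 to 8.29 in GEN and 7.68 to 12.3 in CON. Higher in GEN were 7 of 11 on GD4.5 (median 0.23) and 10 of 11 on GD5.5 (median 0.50), with none called. Mug1 and Mug2 were lower in GEN on both of these days. The part of the acute phase genes in the members' results was not tested. From GD4.5 to GD5.5, 1 of 12 rose and 2 fell in GEN, and 1 rose and 4 fell in CON. The gene that rose was Hamp, which encodes the iron hormone hepcidin (adjusted p = 0.00253 in GEN and 4.65e-05 in CON by limma), and it was not well above background on any CON array of GD4.5. Steap4, a metalloreductase gene, differed by -1.58 in GEN (adjusted p = 0.000433).

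Among 13 genes of cytokines and growth factors that alpha-2-macroglobulin carries, none was called between exposures on GD3.5, GD4.5 or GD5.5, and between GD4.5 and GD5.5 2 rose and 2 fell in GEN, and 3 rose and 4 fell in CON. Inhba, an activin subunit, rose by 1.23 in GEN and 1.53 in CON, and Apoe, an apolipoprotein gene, differed by -1.38 in GEN (adjusted p = 0.00909 by limma). Apoe was lower on GD5.5 in CON as well, at 6.72 ± 0.33 on GD4.5 and 4.44 ± 0.64 on GD5.5 (SD, n = 4 each). Of 19 other secreted protease inhibitors none was called between exposures on those days, and 1 rose in GEN between GD4.5 and GD5.5 (Itih4, 1.71, adjusted p = 0.0142). In CON 1 rose and 5 fell, Itih3 among them (-1.67, adjusted p = 0.000891).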

How the data were processed

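Per the file headers, the deposited scanner files give a processed intensity for every spot (Agilent Feature Extraction 9.5), made, per the labels, from Cy3-labelled RNA. The authors' series table repeats these intensity values and has 0 unused columns. Symbols were updated through RefSeq accession (22951 probes), gene ID (294), symbol (6659) or synonym (3109).

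Intensities were taken to log2 less the 75th percentile over non-control spots of the array (43379). Spots marked as outliers were set to missing, repeated spots averaged, and the brightest probe stood for a gene. limma 3.58.1 (R 4.3.3, statmod 1.5.0, data.table version 1.17.8) fitted 8 group means over all 29 arrays, with Benjamini-Hochberg adjustment over genes that 3 or more arrays in the comparison showed well above background. Genes at an adjusted p under 0.05 were called. Groups and replicate numbers come from sample titles. The number of arrays limits the precision.

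The members, the 19 gene lists, the tests and the alternatives were chosen with earlier results of these data known. Named genes were all members, the genes of highest Pearson r to them (8 for Mug1, 5 for Mug2 and A2m), up to 4 called genes of a list by adjusted p, and up to 3 examples by mean level where none was called. Defining markers are named besides, and some genes that the rule would name are not reported here. Tested on simulated data with 200 changed genes, the fit recovered 75% of those with a log2 change of 2 and 98.9% of those with one of 4 on GD3.5 (20355 genes), and 89.8% and 95.7% on GD4.5 (21574 genes).

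Same-numbered GEN and CON arrays had deviations from their group means that correlated at r = 0.33 to 0.43 on GD5.5, where every value was over 0.1 and the numbers count as pairs, at -0.10 to 0.49 on GD4.5, and at -0.26 to -0.02 on GD1.5 and GD3.5. Alternatives were normexp background correction (offset 50), quantile normalization, the 50th percentile, the mean over probes, the filter on dim probes, a block for slide or replicate number, fits of the compared arrays alone, a variance trend with robust fit, and leaving out each array. Added after seeing the data were normexp refitted without spots of high local background, a replicate block within each day, and the second probe of a gene.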

Additional observations from a re-analysis of the deposited data

Results flagged for a closer look

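In 3 of the 30 groups of 4 arrays tested over the member probes, 1 array lay far from the other 3 (its gap over the group's range was above 0.829). Chance marks about 1 in 20 such groups. GD4.5 GEN 4 had a Mug1 level of -3.74, with the other GEN arrays of that day at -2.53 to -2.38. GD5.5 GEN 2 had a Mug2 probe 2 level of -4.85, with the others at -4.34 to -4.27. GD4.5 GEN 2 had an A2m probe 2 level of -4.42, with the others at -5.11 to -5.05.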

How the results depend on the processing

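The count of called members was the same under every alternative for GEN minus CON on GD4.5 and GD5.5 (0), for the day change in CON (1) and for the effect difference (0). On GD3.5 it ran from 0 to 1 when single arrays were left out, with 1 (Mug1, adjusted p = 0.0229) without GD1.5 CON 1. For the day change in GEN it was 2 with normexp, where Mug2 gave 1.22 (adjusted p = 0.0286), and 0 with only the arrays compared, where A2m gave 1.82 (adjusted p = 0.134). Small differences changed sign. Mug2 GEN minus CON on GD5.5 was 0.58 with normexp. The Mug2 day change in GEN was 0.073 with normexp refitted, 0.24 with the other probe and 0.017 with the mean over probes. The Mug2 effect difference was 1.09 with normexp and 0.22 with the other probe, and A2m GEN minus CON on GD5.5 was 0.055 with slide as a fixed block. Leaving out single arrays gave -0.23 to 0.44 for the Mug1 day change in CON, -0.10 to 0.58 for the Mug1 effect difference, -0.18 to 0.41 for the Mug2 day change in CON, -0.47 to 0.043 for that in GEN, and -0.38 to 0.25 for A2m GEN minus CON on GD5.5. The causes were not tested. With the replicate block, Mug1 GEN minus CON was -2.66 on GD3.5 (adjusted p = 0.583 by limma), -1.59 on GD4.5 and -1.32 on GD5.5, with 0 members called, and the block changed no other call of a member. GEN minus CON moved by over 1.5 times, with no call gained, in these cases. With normexp and with its refit, Mug1 was -1.60 and -1.66 on GD3.5, and Mug2 -0.71 and -0.51 on GD3.5 and -0.51 under each on GD4.5. On GD5.5 Mug1 was -0.52 with normexp and Mug2 -0.57 with the refit and -0.76 with the other probe. A2m with the other probe was -0.47, 0.05 and -0.11 on GD3.5, GD4.5 and GD5.5, and 0.43 with the mean over probes on GD4.5. The Mug1 level difference on GD1.5 lay between -6.48 and -3.19 with single arrays left out. Over all genes, called counts with normexp were 7, 14 and 9826 for GEN minus CON on GD3.5, GD4.5 and GD5.5, 11824 and 4561 for the day change in GEN and CON, and 61 for the effect difference. With the other alternatives they were 8 to 53, 4 to 50, 0 to 8, 0 to 5066, 4764 to 6936 and 0 to 4, and with single arrays left out 4 to 39, 5 to 88, 0 to 263, 2404 to 5903, 5058 to 7499 and 1 to 65.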

Other observations

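Other loci of the alpha-macroglobulin family on chromosome 6 had probes of their own, and these were chosen after their values were seen. Gm7298, which lies near Mug1 and Mug2, was well above background on 6 of 14 CON arrays and on 0 of 15 GEN arrays. On GD1.5 it read -9.71, -9.13, -9.62 and -9.15 in GEN uteri, against -9.10, -6.16 and -4.93 in CON uteri, so its CON arrays had the same order as those of Mug1 and Mug2. On GD4.5 it read -7.10, -6.27, -6.55 and -7.46 in GEN uteri, against -6.17, -5.54, -5.55 and -4.89 in CON uteri, without overlap, but no GEN array was well above background. Gm10319 was well above background on 13 of 29 arrays and the transcript AK086336 on 1.

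A2ml1, which encodes an alpha-2-macroglobulin-like protein, had another course. On GD1.5 it read -2.37, -2.98, -2.66 and -3.05 in GEN uteri, against -3.31, -3.28 and -3.28 in CON uteri. On GD3.5 it was well above background on no array of either exposure. On GD4.5 it read -1.66, -2.32, -3.62 and -3.34 in GEN uteri, against -4.29, -5.16, -4.79 and -3.90 in CON uteri. All 4 GEN arrays lay above all 4 CON arrays, and the difference of 1.80 (SE 0.51) did not pass limma's test (adjusted p = 0.173). Its direction is opposite to that of Mug1 and Mug2 on the same arrays, and the difference between these directions was not tested.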
